A study of Mus musculus with 6 samples.

Results

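The 10 genes described here are Acta2, Myh11, Tagln, Cnn1, Smtn, Lmod1, Des, Synpo2 and Cald1, which encode proteins of the contractile smooth muscle cell (SMC), and Myocd, which encodes the coactivator that switches them on. They were chosen by gene symbol, and 10 of 10 were found among the 25428 probe sets of the arrays, each as 1 probe set. Total RNA from 1 lung lobe of each of 6 male mice was hybridised to GeneChip Mouse Gene 2.0 ST arrays after 7 days at 10% oxygen. The 3 control mice were Nfat5fl/fl, with both Nfat5 alleles flanked by loxP sites, and the 3 Nfat5(SMC)-/- mice had lost the floxed part of Nfat5 from SMCs through SM-MHC-CreERT2. That recombinase runs from the promoter of Myh11, one of the 10 genes, and is active only with tamoxifen. By the study's methods, males of 10 to 12 weeks from this cross received tamoxifen on consecutive days (Nfat5(SMC)-/-) or the solvent miglyol (Nfat5fl/fl) and recovered for 2 to 3 weeks, so deletion and tamoxifen cannot be told apart. Hypoxia was shared by both groups and normoxic lungs were not analysed here. The labels number the mice of each group 1, 2 and 4, and values are listed in that order throughout, the controls first.

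A contractile SMC shortens when myosin II pulls on filaments of alpha smooth muscle actin, and tropomyosin-bound proteins such as calponin and caldesmon tune that pull. The genes for this machinery are largely driven by serum response factor (SRF), which binds the CArG box in their regulatory DNA, together with myocardin. When SMCs leave this state, as in remodelling vessels, they are known to express less of these genes and more matrix and migration genes. NFAT5, the protein that was removed, is a transcription factor of osmotic and mechanical stress. In whole lung tissue, fewer SMCs and less RNA per SMC cannot be told apart, and airway and vascular SMCs are mixed.

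Over the lung as a whole, none of the 10 genes passed the test after adjustment, and none had a 95% interval that reached a 2-fold change. The comparison asks whether hypoxic lungs without NFAT5 in SMCs hold less of the contractile programme. A difference is the Nfat5(SMC)-/- mean minus the Nfat5fl/fl mean in log2 units, tested with limma across all probe sets with Benjamini-Hochberg adjustment at 0.05. Of all probe sets, 0.818% passed (208 of 25428), and 0 of the 10 genes did. An unadjusted p under 0.05 was found for 2 of the 10, Cald1 (lower) and Smtn (higher), against 19.3% of all probe sets (11.1% lower and 8.19% higher), and the groups did not overlap for the same 2, against 26.9% of all probe sets. The difference lay below 0 for 7 of the 10 genes and above 0 for 3, with a median of -0.09, beside a median of -0.0008 and 50.3% below 0 over all probe sets. The intervals ran from 0.576-fold at the lowest (Cnn1) to 1.63-fold at the highest (Des). Lmod1, Myocd and Synpo2 had Nfat5fl/fl means of 5.01, 5.06 and 5.45, not far above the array median of 4.96. Probes respond less to a change at such levels, so these intervals bound the array signal only.

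**Figure D1:**
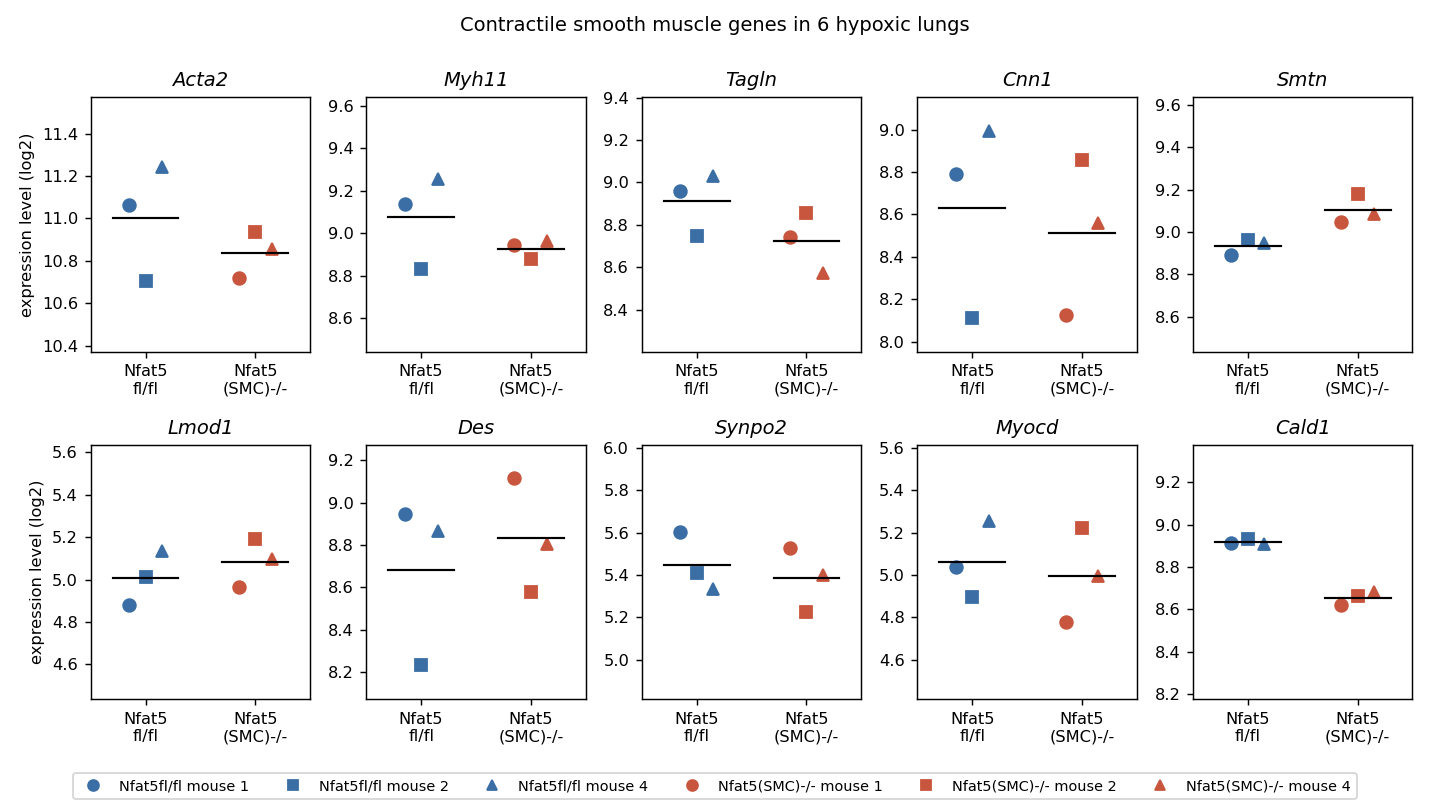
Expression level (log2 scale, 1 panel per gene, each axis covering the same range in log2 units) in each of the 3 Nfat5fl/fl lungs (blue) and 3 Nfat5(SMC)-/- lungs (red), with the mouse number as the symbol and group means as black lines. The groups stand apart in Cald1 and Smtn and overlap in the other 8 genes.

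Before the single genes, 2 features of the lungs bear on all of them. The lung of Nfat5(SMC)-/- mouse 1 stood apart, at 55.8 on a first principal component (49.6% of the variance) where the other 5 lungs lay between -21.6 and 3.57. Nfat5, the targeted gene (Entrez 54446), was at 9.18, 8.62 and 9.21 in the Nfat5fl/fl lungs and at 8.23, 7.72 and 7.89 in the Nfat5(SMC)-/- lungs. All 3 Nfat5(SMC)-/- lungs lay below the controls, but the difference, -1.06 (SE 0.204), missed the threshold (adjusted p = 0.0707 in limma). It passed once the lung of Nfat5(SMC)-/- mouse 1 was left out (-1.20, adjusted p = 0.044). Markers of fat tissue also went with the groups: 18 of 18 adipocyte genes were higher in Nfat5(SMC)-/- lungs and 4 passed the test, with a summed level (log2) of 11.48 to 12.01 in controls and 13.10 to 13.85 in Nfat5(SMC)-/- lungs. The part of that tissue in the results below was not tested.

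Acta2 (Entrez 11475) encodes alpha smooth muscle actin, the thin filament of SMCs and of myofibroblasts. Its level was 11.06, 10.70 and 11.24 in the Nfat5fl/fl lungs and 10.72, 10.93 and 10.86 in the Nfat5(SMC)-/- lungs. The 3 Nfat5(SMC)-/- lungs fell inside the range of the controls, whose highest and lowest lungs enclosed all others. The difference was -0.17 (SE 0.148, 95% interval -0.53 to 0.19, adjusted p = 0.594 in limma), and with single lungs left out it lay between -0.32 and -0.05, the former without control mouse 2 and the latter without control mouse 4.

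The stretch before the start of Acta2 is shown because only there were CArG-like letters found, among the 7 of the 10 genes with a promoter window. It comes from the RefSeq promoter table (GRCm38.p6, chr19:34255374-34255513, minus strand, the 140 bases before the start), and capitals mark 2 CArG boxes in which 1 central A or T is a C or G, at -84 to -75 and -34 to -25 from the start.
Acta2: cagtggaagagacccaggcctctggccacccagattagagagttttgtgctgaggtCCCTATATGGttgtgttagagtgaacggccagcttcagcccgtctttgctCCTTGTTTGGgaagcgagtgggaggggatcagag

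Windows from 250 bases before to 50 after the start were in the table for 7 of the 10 genes and not for Myh11, Tagln and Myocd. A CArG box without such a change was in 0 of these 7, against 1.81% of the 27025 genes in the table, and the form with 1 central C or G was in 1 of 7 (Acta2), against 9.7%. TonE, the tonicity element that NFAT5 binds, was in 0 of 7, against 5.74% of genes. Both strands were searched. The matches describe letters only, and regulatory DNA farther away was not searched.

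Myh11 (Entrez 17880) encodes smooth muscle myosin heavy chain, the motor of SMCs and the gene whose promoter drives the recombinase. It was at 9.14, 8.83 and 9.25 in the Nfat5fl/fl lungs and at 8.94, 8.88 and 8.96 in the Nfat5(SMC)-/- lungs. Control mouse 2 was again the lowest of all lungs and control mouse 4 the highest, and the Nfat5(SMC)-/- lungs lay close together between them. The difference was -0.15 (SE 0.118, 95% interval -0.43 to 0.14, adjusted p = 0.556 in limma). It was -0.27 without control mouse 2 and -0.06 without control mouse 4.

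Tagln (Entrez 21345) encodes transgelin (SM22 alpha), an actin-binding protein. It was at 8.96, 8.75 and 9.03 in the Nfat5fl/fl lungs and at 8.74, 8.86 and 8.57 in the Nfat5(SMC)-/- lungs. In this gene 2 Nfat5(SMC)-/- lungs fell below every control, though mouse 1 did so by little. The difference was -0.19 (SE 0.11, 95% interval -0.46 to 0.08, adjusted p = 0.406 in limma), and it stayed below 0 with any 1 lung left out (-0.27 to -0.12, the latter without Nfat5(SMC)-/- mouse 4).

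Cnn1 (Entrez 12797) encodes calponin 1, which binds actin and slows the myosin ATPase. It had the widest spread within groups, at 8.79, 8.11 and 8.99 in the Nfat5fl/fl lungs and 8.13, 8.86 and 8.56 in the Nfat5(SMC)-/- lungs. Control mouse 2 and Nfat5(SMC)-/- mouse 1 shared the low end, so the groups overlapped throughout. The difference was -0.12 (SE 0.279, 95% interval -0.80 to 0.56, adjusted p = 0.862 in limma). It turned to 0.06 without control mouse 4 and to 0.08 without Nfat5(SMC)-/- mouse 1, and was -0.38 without control mouse 2.

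Smtn (Entrez 29856) encodes smoothelin, which binds actin stress fibres and is known as a marker of fully contractile SMCs. It was at 8.89, 8.96 and 8.95 in the Nfat5fl/fl lungs and at 9.04, 9.18 and 9.08 in the Nfat5(SMC)-/- lungs. Each Nfat5(SMC)-/- lung lay above each control, with a gap of 0.08 between the groups. The difference of 0.17 (SE 0.067, 95% interval 0.01 to 0.33) had a p of 0.0439 in limma before adjustment and 0.243 after it. Of all probe sets, 18.1% had a smaller p.

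Lmod1 (Entrez 93689) encodes leiomodin 1, which starts new actin filaments in SMCs. It was at 4.88, 5.01 and 5.13 in the Nfat5fl/fl lungs and at 4.96, 5.19 and 5.10 in the Nfat5(SMC)-/- lungs, so the groups overlapped. These levels are near the median of each array (4.96), where probes respond less to a change. The difference was 0.08 (SE 0.097, 95% interval -0.16 to 0.31, adjusted p = 0.728 in limma) and ran from 0.01 to 0.14 with single lungs left out, the lowest without control mouse 1.

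Cald1 (Entrez 109624) encodes caldesmon, which holds back the actin-myosin interaction in SMCs and, as a shorter form, is made by most other cells. The probe set joins both forms. It was at 8.91, 8.93 and 8.91 in the Nfat5fl/fl lungs and at 8.62, 8.66 and 8.68 in the Nfat5(SMC)-/- lungs. The lungs of each group lay close together, and a gap of 0.23 separated the groups. The difference of -0.26 (SE 0.058, 95% interval -0.40 to -0.12), or 0.834-fold, did not pass (adjusted p = 0.0889 in limma). It had the smallest p of the 10 genes (0.00383), and 4.31% of all probe sets had a smaller one. With single lungs left out it lay between -0.28 and -0.24.

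Smtn and Cald1 were the genes whose groups stood apart, and the letters CATTCC, the core of the MCAT element that TEAD factors bind, lie before both starts. Stretches of 100 bases from the same RefSeq table are shown for them, at chr11:3539443-3539542 (minus strand) for Smtn and chr6:34598304-34598403 (plus strand, the first of 2 starts) for Cald1. Capitals mark CATTCC in Smtn and its reverse complement in Cald1.
Smtn: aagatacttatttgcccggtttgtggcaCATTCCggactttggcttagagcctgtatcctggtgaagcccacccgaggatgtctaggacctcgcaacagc
Cald1: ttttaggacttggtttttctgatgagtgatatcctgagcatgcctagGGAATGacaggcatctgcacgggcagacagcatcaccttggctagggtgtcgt

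CATTCC was in the windows of 4 of the 7 genes (Acta2, Smtn, Lmod1 and Cald1), against 16.6% of all genes in the table. It overlapped no CArG match there. In Cald1 the letters lie at the first of 2 starts only. The differences of the 4 genes were 0.17 (Smtn), 0.08 (Lmod1), -0.17 (Acta2) and -0.26 (Cald1). Whether the letters bear on them was not tested.

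Des (Entrez 13346) encodes desmin, the intermediate filament of all muscle types. It was at 8.94, 8.23 and 8.86 in the Nfat5fl/fl lungs and at 9.11, 8.58 and 8.80 in the Nfat5(SMC)-/- lungs. Mouse 2 was the lowest lung of each group and mouse 1 the highest. The difference was 0.15 (SE 0.227, 95% interval -0.40 to 0.70, adjusted p = 0.769 in limma), and it turned to -0.07 without control mouse 2 and fell to 0.01 without Nfat5(SMC)-/- mouse 1.

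Synpo2 (Entrez 118449) encodes synaptopodin 2 (myopodin), a Z-disc and dense body protein that links actin to filamin in smooth and striated muscle. It was at 5.60, 5.41 and 5.33 in the Nfat5fl/fl lungs and at 5.53, 5.23 and 5.40 in the Nfat5(SMC)-/- lungs. Mouse 1 was the highest lung of each group here as well. The difference was -0.07 (SE 0.11, 95% interval -0.33 to 0.20, adjusted p = 0.80 in limma), and it turned to 0.01 without control mouse 1 or without Nfat5(SMC)-/- mouse 2.

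Des and Synpo2, which striated muscle also expresses, went with markers of skeletal muscle that differed between lobes, and the part of that tissue in their levels was not tested beyond the values below. The mean of 12 skeletal muscle genes, each centred on its mean over the 6 lungs, was 0.88, -0.95 and -0.08 in the Nfat5fl/fl lungs and 1.09, -1.28 and 0.33 in the Nfat5(SMC)-/- lungs. Acta1, skeletal alpha actin, ranged from 6.17 to 10.18 in controls and from 5.50 to 10.52 in Nfat5(SMC)-/- lungs, with mouse 2 the lowest in both groups. The 2 lungs highest in this list were the 2 highest for Des and for Synpo2, and the 2 lowest in the list were the 2 lowest for Des. None of the 12 skeletal muscle genes passed the test between groups, and 8 of 12 were higher in Nfat5(SMC)-/- lungs. With the list mean as a covariate, an analysis chosen after seeing the data, the SE of Des fell from 0.227 to 0.127 and its difference was 0.12 (95% interval -0.20 to 0.45, adjusted p = 0.641 in limma). The SE of Synpo2 went from 0.11 to 0.077, with a difference of -0.08. Acta2 kept its SE (0.148 and 0.159), as did Cnn1 (0.279 and 0.299).

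**Figure D2:**
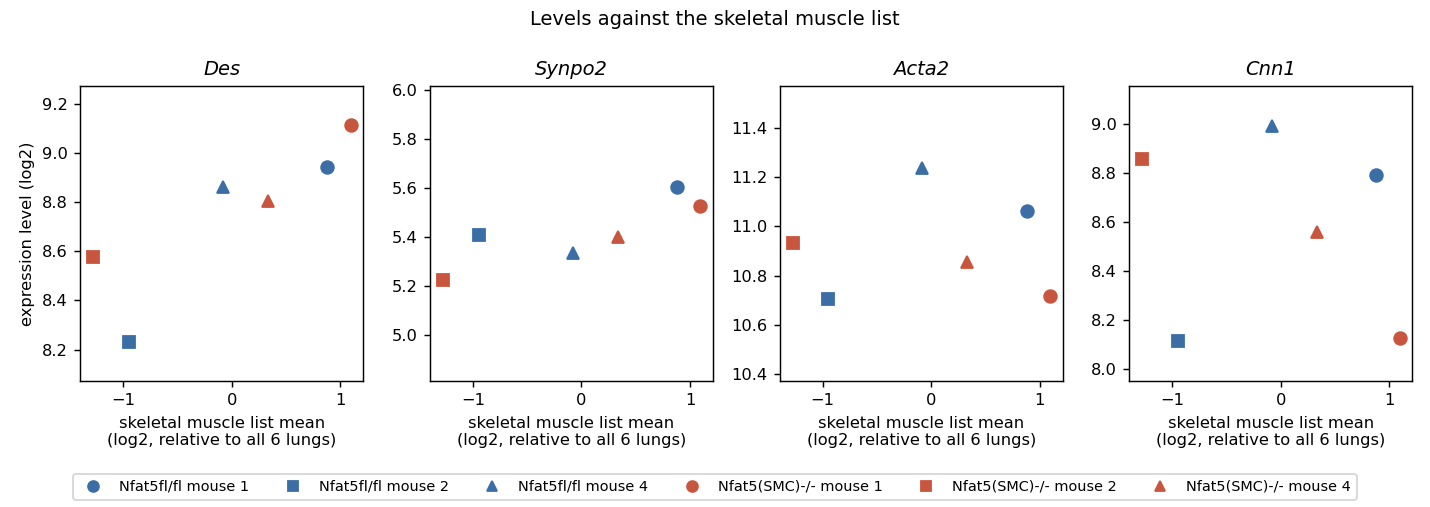
Expression level (log2) of Des, Synpo2, Acta2 and Cnn1 against the mean of 12 skeletal muscle genes (log2, centred on the 6 lungs), 1 point per lung, red for Nfat5(SMC)-/- and blue for Nfat5fl/fl, with the mouse number as the symbol. Des is lowest in both mouse 2 lungs, at the left, and highest in both mouse 1 lungs, at the right, while Cnn1 is low in 1 lung at each end.

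Myocd (Entrez 214384) encodes myocardin, the coactivator that binds SRF and, in SMCs and heart muscle, drives contractile genes. It was at 5.04, 4.90 and 5.25 in the Nfat5fl/fl lungs and at 4.78, 5.22 and 4.996 in the Nfat5(SMC)-/- lungs. Both groups covered nearly the same range, close to the array median, and the lowest lung was Nfat5(SMC)-/- mouse 1. The difference was -0.06 (SE 0.144, 95% interval -0.41 to 0.28, adjusted p = 0.852 in limma). It turned to 0.03 without control mouse 4 and to 0.05 without Nfat5(SMC)-/- mouse 1. The interval covers 0.751-fold to 1.22-fold of the array signal, at a level where probes respond less to a change.

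Several of the 10 genes were ordered alike over the lungs, in an order that did not follow the groups. Control mouse 2 was the lowest lung for 4 of them (Acta2, Myh11, Cnn1 and Des) and control mouse 4 the highest for 5 (Acta2, Myh11, Tagln, Cnn1 and Myocd). Cald1, Smtn, Synpo2 and Lmod1 did not share this order, and control mouse 2 was the highest lung for Cald1. Averaged over the 10 genes, the centred level was 0.09, -0.15 and 0.16 in the Nfat5fl/fl lungs and -0.08, 0.02 and -0.04 in the Nfat5(SMC)-/- lungs. The controls thus held both the highest and the lowest lung in this average.

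The protein-coding genes above the median level whose profiles lay nearest to that average over the 6 lungs were E2f7, Lama1, Rpe, P2rx7 and Srrt, at a root mean squared distance of 0.044 for E2f7 to 0.05 for Srrt, beside a median of 0.236 over the 11696 genes compared. Nearest to Myocd were Ube2c (0.051), Abca7 (0.053) and Lysmd3 (0.06), beside a median of 0.253. None of these is on the list of contractile apparatus genes. The likeness rests on 6 lungs, is a description and carries no p.

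**Figure D3:**
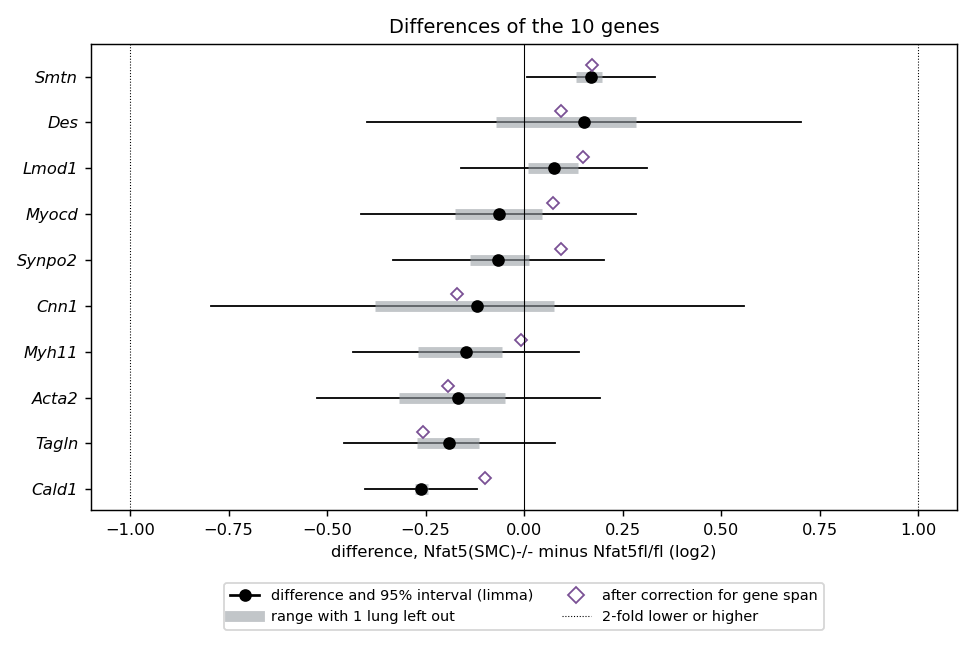
Difference of each of the 10 genes, Nfat5(SMC)-/- minus Nfat5fl/fl in log2 units, with its 95% interval (black), the range when 1 lung is left out (grey bar) and the difference after correction for gene span (open diamond). All intervals lie inside the dotted lines of a 2-fold change, and only those of Cald1 and Smtn leave out 0.

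Across all genes the difference between the groups went with gene span, the length of the gene on the chromosome with introns, and some of the 10 genes are long. Over 10 bins of the brighter genes, the median difference went from 0.27 for the shortest genes to -0.25 for the longest. The median of the longest bin minus that of the shortest was 0.33, 0.21 and 0.23 in the Nfat5fl/fl lungs and -0.51, -0.16 and -0.04 in the Nfat5(SMC)-/- lungs, relative to the mean lung. All 3 Nfat5(SMC)-/- lungs therefore lay below the controls in this measure, with mouse 1 the lowest. What it reflects was not tested.

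Set against genes of like span, the order of the 10 genes changed. Cald1 spans 177 kb, and its difference of -0.26 was 0.01 below the median of its bin. After correction of each array for span it was -0.10 (adjusted p = 0.398 in limma), and -0.02 with the curve fitted on brighter genes. Tagln (6.43 kb), Acta2 (15.2 kb) and Cnn1 (10.0 kb) are short, and they lay 0.30, 0.24 and 0.23 below the medians of their bins. After correction they were at -0.26, -0.19 and -0.17, and none passed the test (adjusted p = 0.267, 0.481 and 0.744 in limma). Des (8.29 kb), also short, lay 0.04 above the median of its bin and was at 0.09 after correction. Myh11 (97.7 kb) went from -0.15 to -0.01, and Myocd (96.4 kb) and Synpo2 (160 kb) turned from -0.06 and -0.07 to 0.07 and 0.09. Smtn (21.8 kb) stayed at 0.17. The median of the 10 genes was 0.03 after correction.

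**Figure D4:**
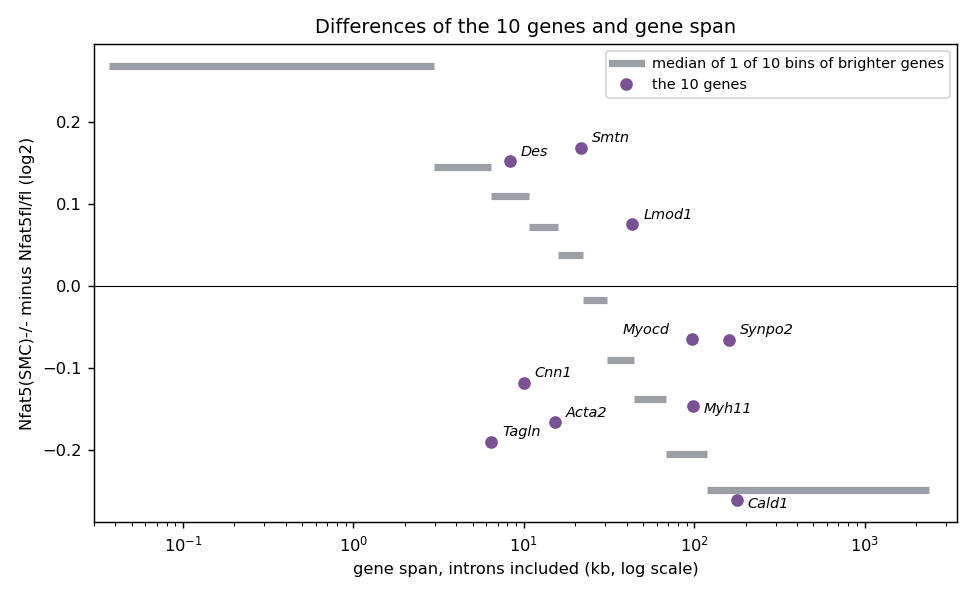
Difference of each of the 10 genes (purple; Nfat5(SMC)-/- minus Nfat5fl/fl, log2) against gene span in kb on a log axis, with the median difference of the brighter genes in 10 bins of span (grey lines). The grey medians go from 0.27 to -0.25, Cald1 lies on the line of its bin, and Tagln, Acta2 and Cnn1 lie below theirs. Des, also short, lies just above its own.

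Myocardin needs SRF as its DNA-binding partner, and 29 genes that partner, replace or oppose the pair were examined as a list. The difference was above 0 for 15 and below 0 for 14 (median 0.01), and 1 passed the test: Carmn, the host transcript of a microRNA pair of SMCs and a long noncoding RNA known to interact with myocardin, fell. It was at 7.31, 7.29 and 7.51 in the Nfat5fl/fl lungs and at 6.32, 6.62 and 6.67 in the Nfat5(SMC)-/- lungs, and no lungs of the 2 groups overlapped. The difference was -0.83 (SE 0.118, adjusted p = 0.0487 in limma). The call was kept in 1 of 6 fits that left out 1 lung, the fit without Nfat5(SMC)-/- mouse 1 (-0.72, adjusted p = 0.0328).

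Among the other regulators with the smallest p, 4 of 5 were lower. Fhl1, which encodes a LIM protein of muscle, had a difference of -0.42 (adjusted p = 0.058), Mef2c -0.51 (0.0869), Mef2a -0.47 (0.0964) and Tead1 -0.37 (0.101), while Mef2d was at 0.39 (0.0731), all in limma. Without Nfat5(SMC)-/- mouse 1, Fhl1, Mef2a and Mef2d passed (0.0463, 0.0406 and 0.0464), in the fit that called 980 of all probe sets. MEF2 factors and TEAD1 bind muscle promoters beside SRF. The groups did not overlap for any of these 5 genes, as for 10 of the 29 in all (8 lower and 2 higher, against 15% and 11.8% of all probe sets). 3 of the 4 lower ones are long: Tead1 spans 227 kb, Mef2c 163 kb and Mef2a 145 kb, and after span correction they were at -0.20, -0.35 and -0.31 (-0.11, -0.28 and -0.24 where brighter genes alone set the curve).

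The members of the core switch were chosen after their values were seen. Srf was at 7.16, 7.51 and 7.36 in the Nfat5fl/fl lungs and at 8.31, 7.84 and 7.80 in the Nfat5(SMC)-/- lungs, higher in each Nfat5(SMC)-/- lung than in any control. Its difference of 0.64 (SE 0.164, 95% interval 0.24 to 1.04) did not pass (adjusted p = 0.113 in limma). Mrtfa and Mrtfb encode the actin-regulated relatives of myocardin. Mrtfa had a difference of 0.23 (adjusted p = 0.59), with Nfat5(SMC)-/- mouse 1 below all controls and mice 2 and 4 above them, and without mouse 1 it was 0.47 (0.0413 in limma). Mrtfb had -0.39 (0.157), with no overlap. Mrtfb spans 161 kb and was at -0.23 after span correction (-0.16 where brighter genes alone set the curve). Klf4, whose product represses contractile genes, had 0.13 (0.709).

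CArG boxes were found in the promoter windows of 7 genes on the lists of regulators and of further contractile proteins: Srf, Fhl1 and Fhl2 among 21 regulators with a window, and Myl9, Myl6, Vcl and Cnn2 among 26 contractile genes with one, beside 1.81% of all genes in the table. Their stretches are shown because they carry the SRF-binding letters, in capitals, from the RefSeq table (GRCm38.p6). They lie at chr17:46556195-46556264 (Srf, minus strand), chrX:56779561-56779610 (Fhl1, plus, the first of 2 starts), chr1:43163963-43164012 (Fhl2, minus, the second of 2 starts, both with a CArG box), chr2:156775283-156775332 (Myl9, plus), chr10:128493030-128493079 (Myl6, minus, the second of 2 starts), chr14:20929151-20929200 (Vcl, plus) and chr10:79988524-79988573 (Cnn2, plus).
Srf: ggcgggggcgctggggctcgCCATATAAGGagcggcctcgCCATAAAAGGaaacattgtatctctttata
Fhl1: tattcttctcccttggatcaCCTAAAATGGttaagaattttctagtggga
Fhl2: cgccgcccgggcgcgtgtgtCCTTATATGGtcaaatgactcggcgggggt
Myl9: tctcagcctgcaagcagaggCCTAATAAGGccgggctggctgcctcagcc
Myl6: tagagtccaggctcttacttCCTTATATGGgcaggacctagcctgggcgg
Vcl: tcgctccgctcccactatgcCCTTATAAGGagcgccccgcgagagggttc
Cnn2: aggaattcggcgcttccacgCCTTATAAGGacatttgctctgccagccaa

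The differences of these 7 genes had no common sign. Except for Fhl1 they lie outside the rule for named genes and were taken up, for their promoter letters, after their values were seen. Beside Srf (0.64) and Fhl1 (-0.42), Vcl, which anchors actin at focal adhesions, was at -0.36 (adjusted p = 0.202 in limma). Vcl spans 104 kb and was at -0.22 after span correction (-0.16 where brighter genes alone set the curve). Myl6 (0.18), Cnn2 (0.12), Myl9 (0.12) and Fhl2 (0.01) overlapped between the groups. Their adjusted p lay between 0.438 and 0.978 in limma. Myl6 was at 4.41 to 4.79, below the array median of 4.96, where probes respond less to a change. Vcl and Cnn2 hold the same 10 letters, and Fhl2 and Myl6 share another 10. TonE, the NFAT5 element, was in 3 of 26 contractile genes with a window (Tpm1, Hspb1 and Mustn1), beside 5.74% of all genes. Among 21 regulators with a window it was in 1 (Mef2c). Tpm1 and Mustn1 are named for these letters alone, after their values were seen. Whether the letters bear on any difference was not tested.

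Of 32 further genes of the contractile apparatus, the difference was above 0 for 15 and below 0 for 17 (median -0.04), and 1 passed the test. Hspb1, a small heat shock protein that binds actin, rose: it was at 6.39, 6.36 and 6.43 in the Nfat5fl/fl lungs and at 7.07, 6.95 and 7.02 in the Nfat5(SMC)-/- lungs. The gap between the groups was far wider than the spread within either. The difference was 0.62 (SE 0.065, adjusted p = 0.0416 in limma), and the call was kept in 1 of 6 fits that left out 1 lung, the fit without Nfat5(SMC)-/- mouse 1 (0.59, adjusted p = 0.0306). Hspb1 spans 1.65 kb, and it was at 0.55 (0.0535) after span correction and, where brighter genes alone set the curve, at 0.36 (0.0904).

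The next genes of the apparatus were mostly lower and did not pass, although Nexn and Itga8 did without Nfat5(SMC)-/- mouse 1 (adjusted p = 0.044 and 0.0392 in limma). Nexn, which encodes the actin-binding protein nexilin, was at 8.09, 7.57 and 7.78 in the Nfat5fl/fl lungs and 7.00, 6.92 and 6.76 in the Nfat5(SMC)-/- lungs. All 3 Nfat5(SMC)-/- lungs lay below the controls, with a difference of -0.92 (SE 0.146, adjusted p = 0.0562 in limma). After span correction Nexn (29.4 kb) was still at -0.88 (0.073). Itga8, the integrin alpha subunit of contractile SMCs, had -0.46 (0.0537), Mylk, the kinase that activates smooth muscle myosin, -0.34 (0.0953), Pgm5, an adherens junction protein, -0.24 (0.14) and Itga5, a fibronectin receptor subunit, 0.27 (0.113), all in limma. Itga8, Mylk and Pgm5 span 195, 257 and 184 kb, and their differences after span correction were -0.29, -0.16 and -0.08 (-0.21, -0.07 and -0.0040 where brighter genes alone set the curve).

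Groups did not overlap for 14 of the 32 genes, 11 lower and 3 higher, against 26.9% of all probe sets (15% lower and 11.8% higher). Of the lower genes, Itga8, Mylk, Pgm5 and Vcl are long, as given above. The median difference of the 32 genes, -0.04, was 0.055 after span correction. Actg2, the gamma smooth muscle actin of gut and bladder, and Myl9, the regulatory light chain of smooth muscle myosin, are an isoform of the actin and a partner chain of the myosin named above. They were chosen after their values were seen, and had differences of 0.15 (SE 0.264) and 0.12 (SE 0.103), with overlapping groups.

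**Figure D5:**
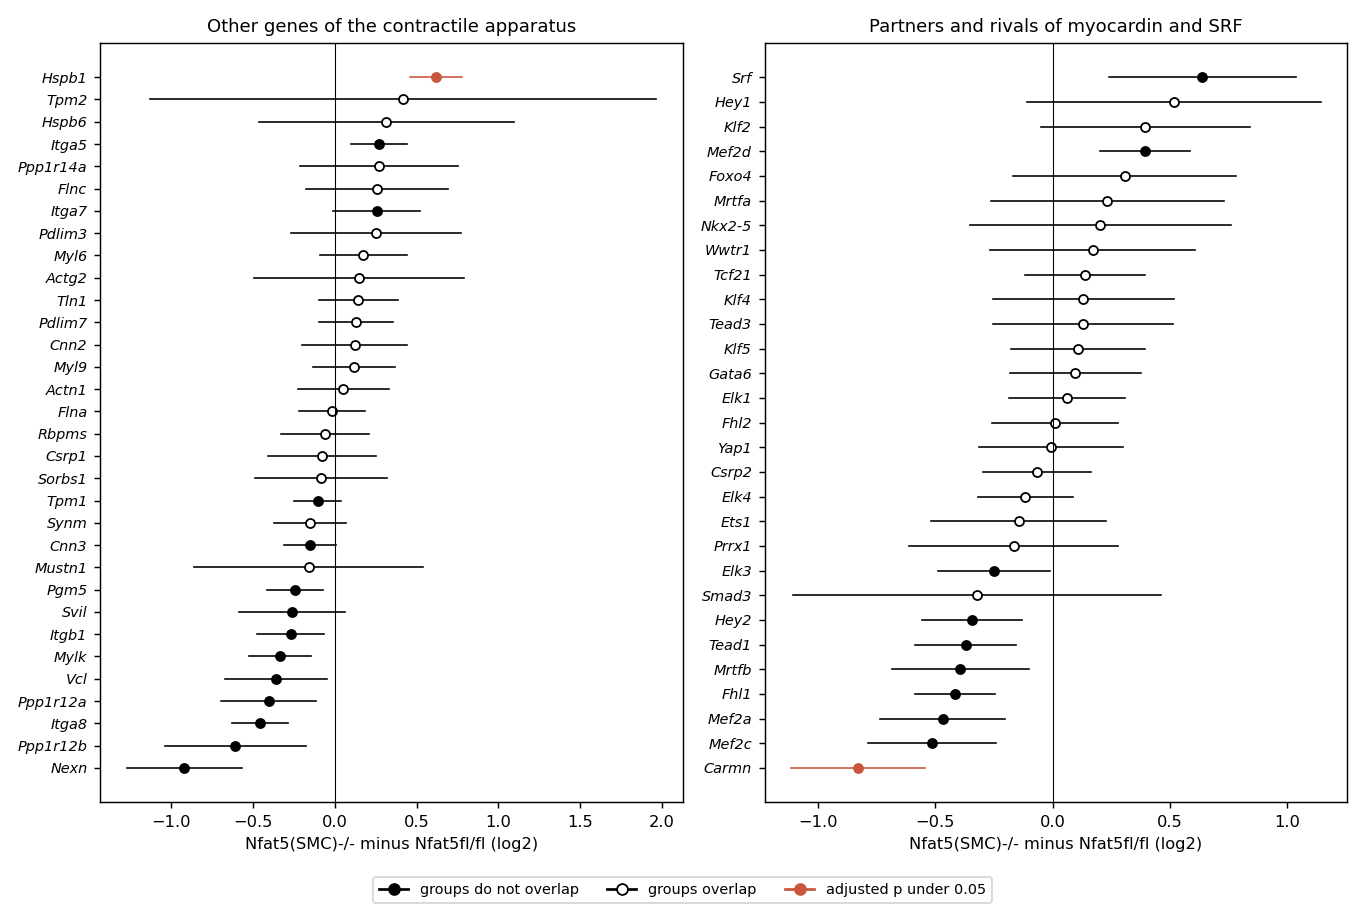
Difference (Nfat5(SMC)-/- minus Nfat5fl/fl, log2) with 95% interval for the 32 further genes of the contractile apparatus (left) and the 29 regulators around myocardin and SRF (right), filled where the groups do not overlap and red where the adjusted p is under 0.05. Hspb1 at the top left (0.62) and Carmn at the bottom right (-0.83) are the red points, and Srf (0.64) tops the right panel.

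Genes of the synthetic SMC state, which proliferating SMCs are known to express, were balanced: 8 of 16 had a difference above 0 and 8 below (median 0.0009), and 0 passed the test in limma (2 at an unadjusted p under 0.05, against 19.3% of all probe sets). The smallest p values were those of Myh10, non-muscle myosin, at -0.35 (adjusted p = 0.0889) and Lgals3, a galectin, at 0.26 (0.113), and Myh10 passed without Nfat5(SMC)-/- mouse 1 (0.0375). S100a4 (0.72, adjusted p = 0.261), Lum (0.52, 0.30), Eln (0.33, 0.388) and Spp1 (-0.51, 0.396) followed. S100a4 and Spp1 did not overlap between the groups and moved furthest in Nfat5(SMC)-/- mouse 1, without which they were at 0.38 and -0.16. Myh10 spans 125 kb and was at -0.20 after span correction (-0.13 where brighter genes alone set the curve).

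Pericytes lie next to SMCs in the wall of small vessels. Of 14 pericyte genes 9 were lower, with a median of -0.12, and 1 passed. Gucy1a1, a subunit of the nitric oxide receptor that relaxes SMCs, fell from 10.73, 10.69 and 10.71 in the Nfat5fl/fl lungs to 10.13, 10.09 and 10.20 in the Nfat5(SMC)-/- lungs, by 0.57 on the log2 scale (SE 0.062, adjusted p = 0.0416 in limma). It too was called in 1 of 6 fits with 1 lung left out, that without Nfat5(SMC)-/- mouse 1 (adjusted p = 0.0313), and was at -0.47 (0.0553) after span correction. Its partner subunit Gucy1b1 was at -0.39 (0.0601) and Postn, a matrix protein, at -0.71 (0.0719), both without overlap and both past the threshold without that lung (0.0496 and 0.0472), while Higd1b had -0.31 (0.222), Cox4i2 0.40 (0.40) and Abcc9 -0.35 (0.419).

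Of 10 genes of airway smooth muscle and myofibroblasts, 6 were higher and 4 lower and 0 passed the test in limma, 5 at an unadjusted p under 0.05 (19.3% of all probe sets). Tgfbi, a matrix protein induced by TGF-beta, had 0.46 (adjusted p = 0.0548), and Hhip, Npnt and Pdgfra had -0.68 (0.0889), -0.33 (0.0958) and -0.30 (0.103). Tgfbi and Hhip passed without Nfat5(SMC)-/- mouse 1 (0.0406 and 0.0313). Lgr6 had 0.39 (0.175) and Wnt5a 0.09 (0.544). Of these, all but Wnt5a did not overlap between the groups (26.9% of all probe sets). After span correction Hhip (92.2 kb), Npnt (68.5 kb) and Pdgfra (46.9 kb) were at -0.55, -0.21 and -0.22. Where brighter genes alone set the curve they were at -0.49, -0.17 and -0.18. Lgr6 (122 kb) and Tgfbi (29.8 kb) were at 0.54 and 0.50 after span correction, and at 0.60 and 0.52 with brighter genes alone. Other cells of the lobe had medians of 0.18 (12 fibroblast genes), -0.12 (12 endothelial genes), -0.04 (8 alveolar type 2 genes), 0.21 (10 macrophage genes) and -0.04 (16 cardiac muscle genes), with 0 calls in limma in any of the 5 lists. In that order, 5, 4, 1, 3 and 1 genes had an unadjusted p under 0.05, against 19.3% of all probe sets. Of 10 brown adipocyte genes 8 were higher in Nfat5(SMC)-/- lungs, with a median of 0.47 and 0 calls in limma (6 at an unadjusted p under 0.05, against the same 19.3%). The list mean, centred as above, was -0.69, 0.13 and -0.70 in the Nfat5fl/fl lungs and 0.28, 0.63 and 0.34 in the Nfat5(SMC)-/- lungs, with control mouse 2 above the other controls. The sources used here do not say whether mice of a group were littermates, and p-values measure the spread between these 6 lungs.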

How the data were processed

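Total RNA of 6 lung lobes, 3 per genotype, was hybridised to 1 array each. The authors quantile-normalised the arrays (the submitters' processing notes name RMA, no version stated) and grouped probes by a custom CDF of version 22 with 1 probe set per Entrez gene. The deposited log2 values were used as they stand, so differences are relative to the other genes and isoforms are not separated. No source names the genome build of the files, so probe sets carry no coordinates. Symbols (25269 of 25428 probe sets) and gene spans (25237) came from the platform table and RefSeq's GRCm38.p6 table, promoter windows from the latter.

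Groups were compared in R 4.3.3 by two-sided moderated tests from limma 3.58.1 on all 6 lungs without covariates, and p was adjusted by Benjamini-Hochberg over the whole table. The fit was tested on simulated data. With 3 lungs a group, the smallest exact permutation p is 0.1, so none was run, and the number of arrays limits the precision. The 10 genes and the 14 gene lists were chosen with earlier results of these data known. Named genes were the 10, Nfat5, the 6 smallest p in each of 5 muscle and stromal lists, the up to 3 brightest of other lists (here mostly summarised), the 5 genes nearest to the mean of the 10 and the 3 nearest to Myocd. Names from outside this rule are marked in the text. Alternatives were the methods' t-test (a one-way ANOVA of 2 groups), other priors, array weights, cyclic loess, a level filter, the mouse number as a block, span corrections by a loess curve (span 0.3), list means as covariates and lungs left out. The skeletal muscle covariate was added after seeing the data.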

Additional observations from a re-analysis of the deposited data

How the results depend on the processing

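Under 19 alternatives, 0 of the 10 genes passed the test in all but 1: array weights, which gave Nfat5(SMC)-/- mouse 1 little weight, called Cald1 (-0.25, adjusted p = 0.0222), and so 1 of the 10. Acta2, Smtn, Lmod1 and Cald1 kept their direction throughout. The median of the 10 genes was -0.20 to -0.0089 with 1 lung left out, 0.033 and 0.047 after span correction (fitted on all and on brighter genes) and 0.030 with the adipocyte list as a covariate. The span correction on brighter genes turned Myh11 to 0.050, Synpo2 to 0.16, Myocd to 0.13, Klf4 to -0.011, Myl9 to -0.011, Cnn2 to -0.0012 and Myl6 to -0.0029, and that on all genes turned Synpo2 to 0.093 and Myocd to 0.073. The adipocyte covariate, which nearly coincides with the groups and raised the SE of Acta2 to 0.505, turned Myh11 to 0.19, Tagln to 0.16, Synpo2 to 0.041, Mef2a to 0.071, Lgr6 to -0.20, Wnt5a to -0.054, Mrtfa to -0.79, Actg2 to -0.45 and Fhl2 to -0.17. Array weights turned Des to -0.080 and Fhl2 to -0.032, and leaving out control mouse 2 and Nfat5(SMC)-/- mouse 1 together turned Des to -0.21. With 1 lung left out, Des ranged from -0.072 to 0.28, Cnn1 from -0.38 to 0.076, Synpo2 from -0.14 to 0.014, Myocd from -0.18 to 0.045, Fhl2 from -0.10 to 0.091 and Actg2 from -0.040 to 0.41. The count of all probe sets called, 208, was 0 with the methods' t-test, the span correction on brighter genes and the adipocyte or cardiac covariate, 1 with cyclic loess, 2 with a mean-dependent prior, 41 after span correction, 112 above the median level, 496 with the skeletal covariate, 0 to 980 with 1 lung left out (980 without Nfat5(SMC)-/- mouse 1, 0 in the 5 others), 1452 without that pair of lungs and 3263 with array weights. Nfat5, at -1.06, passed with array weights (-1.29), the skeletal covariate (-1.08) and without that pair (-1.39), was at -0.029 (adjusted p = 0.981) with the adipocyte covariate, and ranged from -1.25 to -0.94 with 1 lung left out. The calls of Hspb1, Gucy1a1 and Carmn held in 5, 5 and 4 of the 19. The replicate block called 0 probe sets and 0 of the 10 genes. After each group's mean was subtracted, same-numbered lungs of the 2 groups correlated at 0.133, 0.411 and 0.078, beside highest values of 0.145, -0.165 and 0.066 with other numbers. The main fit used no pairs because the study's methods describe none, and whether the numbers mark pairs was not tested. The cause of these changes was not tested.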
